A study of Mus musculus with 9 samples.

Results

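Lipg and Pla2g7 encode secreted enzymes that cut fatty acids from phospholipids, and both were chosen here because their transcripts differed between the genotypes of these macrophages in opposite directions. They are 2 of 29763 named genes in the deposited table, picked by symbol, and both passed the filter on low values that left 11133 genes for testing. Because their measured levels chose them, their differences between genotypes are given as a description with no test.

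RNA was sequenced from mouse bone marrow-derived macrophages, grown for 7 days in medium with 30% supernatant of L929 cells and stimulated for 12 h with 40 ng/ml interferon-gamma. Sequenced were 3 libraries each of an Ndufa4l3-miR147 knockout (Ndufa4l3 is also called Nmes1 and carries the microRNA miR-147), an Ndufa4 knockout and wild type. All libraries were stimulated, so nothing here describes the response to interferon itself. The labels call the replicates technical and give no number of mice, so that errors measure the spread between libraries and a difference between genotypes cannot be told apart from other differences between the cells they came from.

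Endothelial lipase, the product of Lipg, belongs to the lipoprotein lipase family and mainly hydrolyses phospholipids of high-density lipoprotein at the sn-1 position. It is held at the cell surface by heparan sulphate proteoglycans, and despite its name it is also made by macrophages. Pla2g7 encodes lipoprotein-associated phospholipase A2, also called plasma platelet-activating factor acetylhydrolase, which removes the short sn-2 chain of platelet-activating factor and of oxidised phospholipids. Macrophages are a main source of it, and in blood it travels on lipoproteins.

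Pla2g7 (ENSMUSG00000023913.17, protein coding) lies on chromosome 17 of GRCm38 from 43568098 to 43612201, on the plus strand. GENCODE lists 6 transcripts, the longest coding one of 2097 bases, and an antisense gene, 1700071M16Rik, lies inside it. The values are per gene, and the strandedness of the libraries is not given in the sources used here. Its promoter is shown because these cells had been given interferon-gamma, whose signal reaches DNA through the gamma-activated sequence. The sequence is RefSeq's window for GRCm38.p6 at chr17:43568201-43568500, plus strand, from 250 bases before RefSeq's start to 50 after it. RefSeq's start differs from the one above, and the whole window lies inside the gene as GENCODE places it. Motif matches are in capitals.

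Pla2g7 promoter: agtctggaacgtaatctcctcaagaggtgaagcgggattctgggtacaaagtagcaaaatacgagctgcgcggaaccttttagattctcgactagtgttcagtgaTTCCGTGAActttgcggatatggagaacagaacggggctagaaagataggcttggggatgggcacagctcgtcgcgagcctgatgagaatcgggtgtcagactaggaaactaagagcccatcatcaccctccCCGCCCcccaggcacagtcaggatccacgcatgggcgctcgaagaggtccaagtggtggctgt

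The first capitals, at bases 106 to 114 of the window, match the gamma-activated pattern TTCNNNGAA, which reads the same on both strands. Of 32851 promoter windows of this length, 8.3% held that pattern. The second capitals, at bases 238 to 243, match the GC box GGGCGG on the minus strand, a pattern in 35.7% of the windows. The matches do not overlap. Searches on both strands found no match to the core of the interferon-stimulated response element (GAAA, any 2 bases, GAAA, in 3.44% of windows), GAGGAA (a core of PU.1, the macrophage factor, 28.3%), CACGTG (E-box, 7.15%), CCAAT (37.4%) or TATAAA (13.6%). Such matches describe letters only and show neither binding nor a cause.

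Lipg (ENSMUSG00000053846.5, protein coding) lies on another chromosome, 18, from 74939322 to 74961263 of GRCm38 on the minus strand. GENCODE lists 2 transcripts of it, the longest coding one of 3787 bases.

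The libraries' TPM over named genes summed to between 913474 and 921678, and 10809 to 10959 genes reached 1 TPM per library. TPM are transcript abundances divided by transcript length and scaled to a fixed total per library, and they keep no read depth. The targeted gene Ndufa4l3, listed as AA467197, was at 2.90, 2.21 and 4.50 TPM in its own knockout, at 527, 472 and 519 TPM in the Ndufa4 knockout and at 365, 358 and 355 TPM in wild type. Ndufa4 was listed at 0, 0.621 and 0 TPM in Ndufa4l3-miR147 knockout libraries, at 0 TPM in each Ndufa4 knockout library and at 0, 0.303 and 0 TPM in wild type, so it checks nothing about the Ndufa4 labels. Replicate 3 of the Ndufa4 knockout stood apart. Its upper quartile was 7.79 TPM, against 9.24 to 9.84 TPM in the other 8 libraries, and its deviation from the other libraries of its genotype had a Spearman rho of -0.537 with transcript length over 10673 genes, which are not independent replicates. All 10 macrophage markers passed the filter, with summed levels of 9397 to 9575 TPM in the Ndufa4l3-miR147 knockout, 10333 to 10813 TPM in the Ndufa4 knockout and 9788 to 9905 TPM in wild type. That sum ran in the order of Pla2g7 without overlap, and its part in the levels of Pla2g7 was not tested. Much of it was Lyz2, at 4041 to 4172 TPM in the Ndufa4l3-miR147 knockout, 5223 to 5675 TPM in the Ndufa4 knockout and 4509 to 4660 TPM in wild type. Without Lyz2 the other 9 summed to 5356 to 5410 TPM in the Ndufa4l3-miR147 knockout, 5052 to 5468 TPM in the Ndufa4 knockout and 5245 to 5293 TPM in wild type. Within the list Lyz2 rose by 0.24 ± 0.04 in the Ndufa4 knockout (limma adjusted p = 0.011). Its call was lost with quantile normalization, with no filter on low values, in a fit to 6 libraries and without wild-type replicate 1 or 2. Cd14, a co-receptor for lipopolysaccharide, fell there by 0.84 ± 0.06 (limma adjusted p = 0.00033). Mertk, a receptor for apoptotic cells, fell by 0.51 ± 0.13 there (limma adjusted p = 0.049), a call lost when any wild-type or Ndufa4l3-miR147 knockout library was left out. The call of Mertk was also lost with a pseudocount of 0.1, with no filter on low values and in a fit to 6 libraries. So it was without limma's intensity trend, with its robust variance model and with a block for replicate number.

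Lipg stood highest in the Ndufa4l3-miR147 knockout and lowest in the Ndufa4 knockout. It had 32.5, 33.8 and 34.9 TPM in the Ndufa4l3-miR147 knockout, against 21.8, 22.8 and 24.4 TPM in wild type. In the Ndufa4 knockout it had 15.6, 14.5 and 13.1 TPM. Every library of the Ndufa4l3-miR147 knockout lay above every wild-type library, and every library of the Ndufa4 knockout lay below. The mean was 33.7 ± 1.19 TPM in the Ndufa4l3-miR147 knockout, 14.4 ± 1.25 TPM in the Ndufa4 knockout and 23.0 ± 1.31 TPM in wild type (SD, n = 3 each).

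On the log2(TPM + 1) scale, which understates the change of low genes, Lipg differed from wild type by 0.53 ± 0.08 (estimate ± SE) in the Ndufa4l3-miR147 knockout. In mean TPM this was 1.46 times the wild-type level. The Ndufa4 knockout differed from wild type by -0.64 ± 0.08, with 0.626 times the wild-type mean. Between the knockouts, Ndufa4l3-miR147 minus Ndufa4, the difference was 1.17 ± 0.08, or 2.34 times in mean TPM.

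Pla2g7 had the reverse order. It had 13.3, 11.9 and 13.6 TPM in the Ndufa4l3-miR147 knockout, against 19.4, 19.9 and 19.4 TPM in wild type. In the Ndufa4 knockout it had 26.5, 23.9 and 23.7 TPM. Here the Ndufa4l3-miR147 knockout libraries were lowest and the Ndufa4 knockout libraries highest, again without overlap among the 3 genotypes. Its mean was 12.9 ± 0.926 TPM in the Ndufa4l3-miR147 knockout, 24.7 ± 1.53 TPM in the Ndufa4 knockout and 19.6 ± 0.294 TPM in wild type (SD, n = 3 each).

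Pla2g7 differed from wild type by -0.56 ± 0.08 in the Ndufa4l3-miR147 knockout, with 0.661 times the wild-type mean TPM. In the Ndufa4 knockout the difference from wild type was 0.32 ± 0.08, with 1.26 times the wild-type mean. The Ndufa4l3-miR147 knockout minus the Ndufa4 knockout gave -0.88 ± 0.08, or 0.524 times in mean TPM. For Pla2g7 the estimate farther from 0 was thus that of the Ndufa4l3-miR147 knockout, and for Lipg that of the Ndufa4 knockout; whether the sizes differ was not tested.

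**Figure D1:**
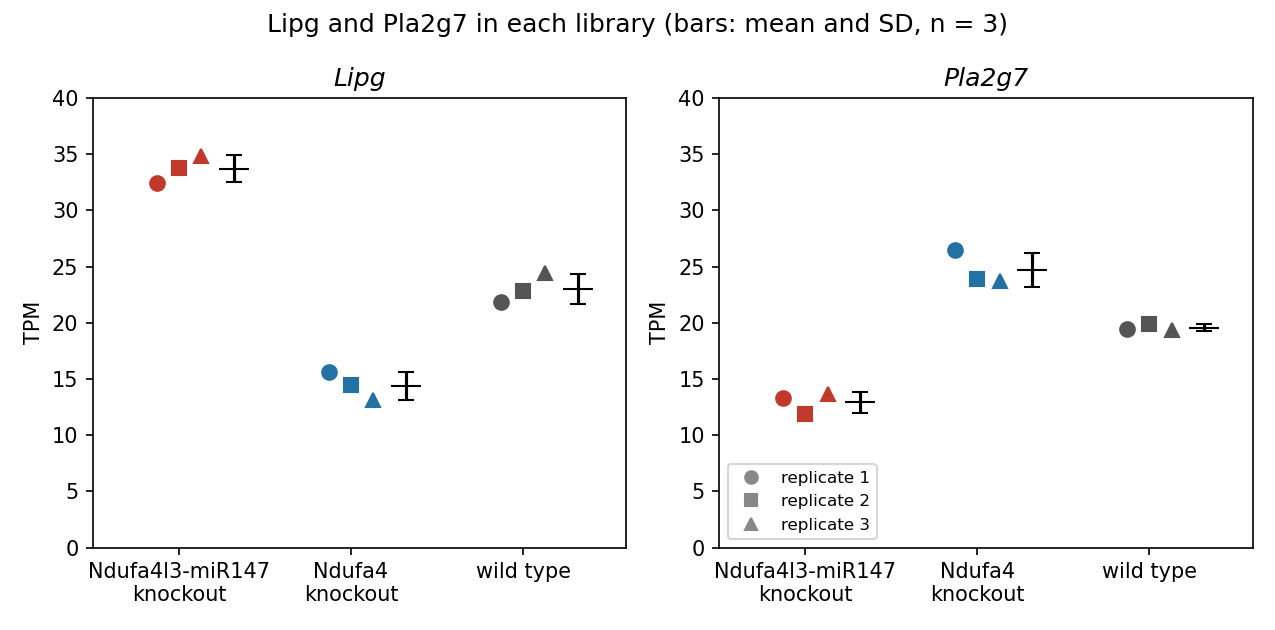
TPM of Lipg (left) and Pla2g7 (right) in each library, with the mean and SD of 3 libraries beside the points of each genotype; both axes start at 0. Lipg runs from 32.5 to 34.9 TPM in the Ndufa4l3-miR147 knockout, 13.1 to 15.6 in the Ndufa4 knockout and 21.8 to 24.4 in wild type, and Pla2g7 is ordered the other way round.

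TPM are per length, so the levels of both genes can be set side by side within a library, with a limit. Their longest coding transcripts differ, at 3787 bases for Lipg and 2097 for Pla2g7. Deviations of Ndufa4 knockout replicates 1 to 3 from the others of that genotype ran with transcript length (Spearman rho 0.353, 0.428 and -0.537). The part of this in the ratios below was not tested. Lipg was at 2.44 to 2.84 times the level of Pla2g7 in the Ndufa4l3-miR147 knockout libraries, at 0.553 to 0.607 times in those of the Ndufa4 knockout and at 1.13 to 1.26 times in wild type. The gene with the higher level was therefore Lipg in 6 of 9 libraries and Pla2g7 in the 3 of the Ndufa4 knockout. Their summed level moved less, at 46.6 ± 1.60 TPM in the Ndufa4l3-miR147 knockout, 39.1 ± 2.69 TPM in the Ndufa4 knockout and 42.6 ± 1.29 TPM in wild type (SD, n = 3 each). Both genes lay near the middle of the expressed genes: by mean TPM among the 11133, Lipg ranked 3912 in the Ndufa4l3-miR147 knockout, 6130 in the Ndufa4 knockout and 5039 in wild type, and Pla2g7 ranked 6662, 4662 and 5503 in the same genotypes.

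Libraries that do not overlap were common. Between the Ndufa4l3-miR147 knockout and wild type they did not overlap for 23.9% of the genes tested, in the Ndufa4 knockout against wild type for 31.1% and between the knockouts for 25.3%. The order of Lipg over all 3 genotypes without overlap was held by 120 genes (1.08%) and that of Pla2g7 by 49 (0.44%). Since both genes were chosen for this order, and both comparisons use the same wild-type libraries, nothing is read from these counts. With both differences at least as large as its own, Lipg shared its order with 1 gene, Ctse, which encodes the aspartic protease cathepsin E (both together 0.018% of genes). Pla2g7 shared its order in that way with AA467197, the gene targeted in the Ndufa4l3-miR147 knockout, and with 5430435G22Rik (all 3 together 0.0269%).

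The values of both genes changed little with the library that stood apart. Without replicate 3 of the Ndufa4 knockout, the difference of that knockout from wild type was -0.58 for Lipg and 0.35 for Pla2g7. With the length trend of each library removed, a setting chosen after seeing the data, it was -0.54 for Lipg and 0.35 for Pla2g7. In bulk RNA, fewer cells that make a transcript and less of it per cell cannot be told apart.

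Marker levels of other cells were set beside both genes. Of 10 endothelial markers 5 passed the filter, and the summed level of all 10 was 67.6 to 70.7 TPM in the Ndufa4l3-miR147 knockout, 47.3 to 62.8 TPM in the Ndufa4 knockout and 66.9 to 71.1 TPM in wild type. The ranges of that sum overlapped between the Ndufa4l3-miR147 knockout and wild type, where Lipg differed, and it was lower in the Ndufa4 knockout, mostly through Vwf, Flt1 and Kdr (limma adjusted p of 0.053 or more). Over the 9 libraries the markers that passed averaged 36.0 TPM (Vwf), 19.4 TPM (Flt1), 5.86 TPM (Kdr), 1.58 TPM (Egfl7) and 0.957 TPM (Pecam1). The 5 that did not pass, Cdh5, Tek, Emcn, Tie1 and Cldn5, were under 1 TPM in every library. Of these, Cdh5 and Tek were higher in the Ndufa4 knockout than in wild type without overlap. Of those that passed, Kdr and Pecam1 were lower there without overlap, while Vwf, Flt1 and Egfl7 overlapped wild type. Kdr was at 3.54 to 5.09 TPM in the Ndufa4 knockout and 5.96 to 6.83 TPM in wild type. Pecam1 was at 0.457 to 0.792 TPM and 1.18 to 1.30 TPM in the same genotypes. Of all genes tested, 31.1% did not overlap in this comparison. Cdh5 was at 0.457 to 0.591 TPM in the Ndufa4l3-miR147 knockout, 0.648 to 0.821 TPM in the Ndufa4 knockout and 0.474 to 0.568 TPM in wild type. Tek was at 0.0989 to 0.193 TPM in the Ndufa4l3-miR147 knockout, 0.201 to 0.342 TPM in the Ndufa4 knockout and 0.0847 to 0.111 TPM in wild type. The part of the endothelial markers in the lower Lipg of the Ndufa4 knockout was not tested. Neutrophil markers, 6 of 10 of which passed, varied within genotypes: the sum over the list was 4.35, 55.5 and 83.2 TPM in wild-type replicates 1 to 3, in which Lipg was at 21.8, 22.8 and 24.4 TPM and Pla2g7 at 19.4, 19.9 and 19.4 TPM. That sum was 39.4 to 76.8 TPM in the Ndufa4l3-miR147 knockout, and in the Ndufa4 knockout 1.80 to 40.1 TPM.

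Fibroblast markers, with 4 of 10 past the filter, also varied within genotypes, mostly through Col3a1. Their sum was 39.1 to 47.6 TPM in the Ndufa4l3-miR147 knockout, 8.11 to 133 TPM in the Ndufa4 knockout and 9.56 to 46.3 TPM in wild type. Dendritic cell markers, with 4 of 10 past the filter, summed to 54.1 to 54.2 TPM in the Ndufa4l3-miR147 knockout, 77.8 to 108 TPM in the Ndufa4 knockout and 55.9 to 62.1 TPM in wild type. Among them Clec9a rose in the Ndufa4 knockout by 0.98 ± 0.19 (limma adjusted p = 0.017, a call lost without wild-type replicate 1, 2 or 3) and Itgax by 1.01 ± 0.11 (limma adjusted p = 0.0012). Batf3 was at 16.7 ± 2.18 TPM in the Ndufa4l3-miR147 knockout, 26.1 ± 3.27 TPM in the Ndufa4 knockout and 25.3 ± 3.01 TPM in wild type. Xcr1 was at 1.49 ± 0.125, 1.99 ± 0.738 and 1.45 ± 0.276 TPM in the same genotypes (SD, n = 3 each). Neither was called by limma against wild type. Flt3 and Zbtb46, also on the list, were each at no more than 0.30 TPM in any library. The dendritic sum was thus highest where Pla2g7 was highest, and its part in that difference was not tested. Of 10 lymphocyte markers 1 passed the filter, and Trac was listed at 0 in every library. The lymphocyte sum was 2.46 to 3.14 TPM in the Ndufa4l3-miR147 knockout, 2.38 to 2.87 TPM in the Ndufa4 knockout and 2.62 to 3.01 TPM in wild type.

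The closest relatives of Lipg were compared next. Lpl, lipoprotein lipase, which frees fatty acids from triglycerides, was among the abundant transcripts at 1155 ± 30.1 TPM in the Ndufa4l3-miR147 knockout, 1398 ± 116 TPM in the Ndufa4 knockout and 1106 ± 16.6 TPM in wild type (SD, n = 3 each). It rose in the Ndufa4 knockout by 0.33 ± 0.06 (limma adjusted p = 0.012), where Lipg was lower than in wild type. Against wild type, Lpl differed by 0.06 ± 0.06 in the Ndufa4l3-miR147 knockout (limma adjusted p = 0.96), where Lipg was higher. The call of Lpl was lost with quantile normalization and without wild-type replicate 1 or 2 (adjusted p as high as 0.059, limma). Lipc, hepatic lipase, did not pass the filter: it was listed at 0, 0 and 0.277 TPM in Ndufa4l3-miR147 knockout libraries, at 0 TPM in each Ndufa4 knockout library and at 0.142, 0 and 0.161 TPM in wild type. Of the 9 other genes on the list of extracellular lipases, Lpl was the 1 that passed it.

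Relatives of Pla2g7 by name or fold were read in the same way. Pafah2, the intracellular platelet-activating factor acetylhydrolase closest to Pla2g7, was at 11.2 ± 1.04 TPM in the Ndufa4l3-miR147 knockout, 8.44 ± 0.984 TPM in the Ndufa4 knockout and 12.0 ± 0.438 TPM in wild type (SD, n = 3 each). In the Ndufa4 knockout it fell by 0.47 ± 0.10 (limma adjusted p = 0.026), where Pla2g7 was higher. That call was lost without wild-type replicate 1, 2 or 3 (adjusted p as high as 0.10, limma). Pafah2 differed by -0.09 ± 0.10 in the Ndufa4l3-miR147 knockout. The intracellular type I enzyme, an unrelated fold named for the same reaction, consists of Pafah1b1 (the regulatory subunit Lis1), Pafah1b2 and Pafah1b3. None of these 3 was called in either comparison with wild type, with differences between -0.05 and 0.12 in the Ndufa4l3-miR147 knockout and between -0.20 and -0.14 in the Ndufa4 knockout, each with an SE of 0.10 to 0.12. Of the 4 genes with Pafah2, limma thus called 0 in the Ndufa4l3-miR147 knockout, against 0.431% of all genes tested. In the Ndufa4 knockout it called 1, against 8.59%.

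Around them, 8 lists of lipid genes with 138 members beside Lipg and Pla2g7 were counted, of which 85 passed the filter. In the Ndufa4l3-miR147 knockout against wild type limma called 0 of 85, against 0.431% of all genes tested (0.243% higher and 0.189% lower), while 14 of the 85 (16.5%) had an unadjusted p under 0.05, against 8.24% of all genes tested. The median difference of the 85 was -0.03, and that of all genes 0.00. Without Ndufa4 knockout replicate 3, which enters the shared spread, 5 of 85 were called, or 5.88% against 1.78% of all genes tested, among them Msr1 (a scavenger receptor), which rose by 0.29, and Abcg1, Pltp and Scarb1, which fell with differences of -0.19 to -0.17. A fit to the 6 libraries compared alone called 9 of 85, or 10.6% against 2.75% of all genes tested.

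In the Ndufa4 knockout against wild type 17 of 85 were called, 7 higher and 10 lower, or 20% against 8.59% of all genes tested (2.83% higher and 5.76% lower). With median-of-ratios scaling 9 were called higher and 8 lower, against 8.49% of all genes tested (492 higher and 453 lower). With quantile normalization these were 8 and 7, against 8.6% of all genes tested (499 higher and 458 lower). The count was 5, 4 and 7 without wild-type replicate 1, 2 and 3, each of these genes among the 17, against 2.39%, 2.39% and 2.6% of all genes tested. It was 4 in a fit to the 6 libraries compared alone, Apoe, Pltp and Ptafr among them, against 2.14% of all genes tested. The median of the 85 was -0.15, and that of all genes -0.08. Between the knockouts, Ndufa4l3-miR147 against Ndufa4, 8 of 85 were called, 4 in each direction, against 3.24% of all genes tested (2.2% higher and 1.04% lower). That count was 3 without any 1 library of the Ndufa4l3-miR147 knockout, against 0.737% to 0.844% of all genes tested, and 5 without any 1 of wild type, against 1.58% to 1.8%.

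The list of genes that make or sense platelet-activating factor had a median of -0.16 in the Ndufa4 knockout, against -0.08 over all genes. In the Ndufa4l3-miR147 knockout the list median was -0.06, against 0.00 over all genes. Of these 12 genes for platelet-activating factor, the substrate of Pla2g7, 1 rose and 2 fell in the Ndufa4 knockout (all genes 2.83% and 5.76%). Ptafr, its receptor, was at 37.2 ± 0.656 TPM in the Ndufa4l3-miR147 knockout, 26.6 ± 0.872 TPM in the Ndufa4 knockout and 40.8 ± 0.226 TPM in wild type (SD, n = 3 each), a fall with a difference of -0.60 ± 0.05 in the Ndufa4 knockout (limma adjusted p = 0.000766) and a difference of -0.13 ± 0.05 in the Ndufa4l3-miR147 knockout (limma adjusted p = 0.54). Ptafr kept its call in the Ndufa4 knockout when any 1 of the 9 libraries was left out. Lpcat2, the inducible enzyme of platelet-activating factor synthesis in macrophages, rose by 0.25 ± 0.06 to 43.5 ± 1.76 TPM (limma adjusted p = 0.030), and Lpcat3, which remodels membrane phospholipids, fell by 0.45 ± 0.11 to 48.2 ± 7.97 TPM (limma adjusted p = 0.036). Both calls were lost when any wild-type or Ndufa4l3-miR147 knockout library was left out, that of Lpcat2 also without Ndufa4 knockout replicate 2 and that of Lpcat3 without replicate 1 (adjusted p as high as 0.13, limma). Lpcat3 was not called under median-of-ratios or quantile scaling.

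The other phospholipases A2 held 8 of 24 members past the filter. From wild type, limma called 0 in the Ndufa4l3-miR147 knockout and 0 in the Ndufa4 knockout, against 0.431% and 8.59% of all genes tested. At an unadjusted p under 0.05 were 1 and 2 of the 8, against 8.24% and 26.1% of all genes tested. The most abundant were Pla2g15, a lysosomal phospholipase, and Plbd2, a phospholipase B-like lysosomal protein. Pla2g15 averaged 114 ± 6.38 TPM in the Ndufa4l3-miR147 knockout, 113 ± 3.94 TPM in the Ndufa4 knockout and 119 ± 2.55 TPM in wild type, and Plbd2 averaged 99.8 ± 5.90, 100.1 ± 9.88 and 100.9 ± 5.38 TPM in the same genotypes (SD, n = 3 each). Of 19 intracellular lipases 15 passed the filter, and among these Pnpla7, a lysophospholipase, fell by 0.45 ± 0.09 in the Ndufa4 knockout (limma adjusted p = 0.017), and was at 30.0 ± 1.05 TPM in the Ndufa4l3-miR147 knockout, 25.9 ± 2.99 TPM in the Ndufa4 knockout and 35.7 ± 1.83 TPM in wild type. Its call was lost with quantile normalization, with the length trend removed and without wild-type replicate 1 or 2 (adjusted p as high as 0.079, limma).

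Genes of the lipoprotein particles on which both enzymes act went both ways in the Ndufa4 knockout. Of 18 on the list 12 passed the filter, and 3 of these rose and 3 fell, against 2.83% and 5.76% of all genes tested. The median was -0.06 there and -0.08 in the Ndufa4l3-miR147 knockout, against -0.08 and 0.00 over all genes. For the Ndufa4l3-miR147 knockout limma called 0 of the 12, against 0.431% of all genes tested. At an unadjusted p under 0.05 were 5 of the 12, against 8.24% of all genes tested. Apoe, a protein of lipoprotein particles, was at 2772 ± 92.2 TPM in the Ndufa4l3-miR147 knockout, 5303 ± 767 TPM in the Ndufa4 knockout and 2979 ± 48.1 TPM in wild type (SD, n = 3 each), and it rose in the Ndufa4 knockout by 0.82 ± 0.09 (limma adjusted p = 0.0013). Pltp, which transfers phospholipid between lipoproteins, rose there by 0.58 ± 0.07 to 505 ± 54.2 TPM (limma adjusted p = 0.0022). Both kept their calls when any 1 library was left out. In the Ndufa4l3-miR147 knockout they differed by -0.10 ± 0.09 and -0.19 ± 0.07, with limma adjusted p of 0.93 and 0.48.

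Calls of Abcg1, Scarb1 and Cd36 on that list were lost under some settings. Abcg1, which exports cholesterol to high-density lipoprotein, fell by 0.33 ± 0.06 (limma adjusted p = 0.012), a call lost with the length trend removed and without wild-type replicate 1, 2 or 3. Scarb1, a receptor for high-density lipoprotein, fell by 0.205 ± 0.04 to 83.1 ± 0.631 TPM (limma adjusted p = 0.024). Its call was lost without any 1 wild-type library, without Ndufa4l3-miR147 knockout replicate 2 or 3 and under median-of-ratios or quantile scaling. Cd36, a receptor for oxidised lipoproteins, rose by 0.59 ± 0.14 to 291 ± 71.0 TPM (limma adjusted p = 0.037), a call lost when any wild-type or Ndufa4l3-miR147 knockout library was left out and without Ndufa4 knockout replicate 2 (adjusted p as high as 0.12, limma). In the Ndufa4l3-miR147 knockout these 3 genes differed by -0.17 ± 0.06, -0.19 ± 0.04 and 0.26 ± 0.14.

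Of 23 genes for the maturation, anchoring and inhibition of secreted lipases 15 passed the filter. In the Ndufa4 knockout 1 of the 15 was called from wild type, against 8.59% of all genes tested. This was Sdc2, a heparan sulphate proteoglycan of the kind that holds Lipg at the cell surface, which rose by 0.61 ± 0.13 (limma adjusted p = 0.023). Its level was low, at 2.33 ± 0.191 TPM in the Ndufa4l3-miR147 knockout, 2.72 ± 0.317 TPM in the Ndufa4 knockout and 1.44 ± 0.254 TPM in wild type, and its call was lost without wild-type replicate 1 or 2 (adjusted p as high as 0.091, limma). The list median was -0.10 in the Ndufa4 knockout and 0.08 in the Ndufa4l3-miR147 knockout, against -0.08 and 0.00 over all genes. Of 29 genes that handle lysophospholipids, the products of both enzymes, or oxidised phospholipids, 18 passed the filter. Of these, 1 rose and 3 fell in the Ndufa4 knockout, against 2.83% and 5.76% of all genes tested. The median was -0.11 there and -0.05 in the Ndufa4l3-miR147 knockout, against -0.08 and 0.00 over all genes. Lpar5, a receptor for lysophosphatidic acid, fell by 0.65 ± 0.11 (limma adjusted p = 0.011), Gdpd1, a lysophospholipase D, fell by 0.60 ± 0.12 (limma adjusted p = 0.017) and S1pr1, a receptor for sphingosine 1-phosphate, fell by 0.50 ± 0.10 (limma adjusted p = 0.021). Gde1, a glycerophosphodiester phosphodiesterase, rose by 0.29 ± 0.07 (limma adjusted p = 0.047). Without any 1 of wild-type replicates 2 and 3 all 4 calls were lost, those of Lpar5, S1pr1 and Gde1 also without replicate 1, and that of Gde1 also without any 1 library of the Ndufa4l3-miR147 knockout or Ndufa4 knockout replicate 1 (adjusted p as high as 0.15, limma).

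**Figure D2:**
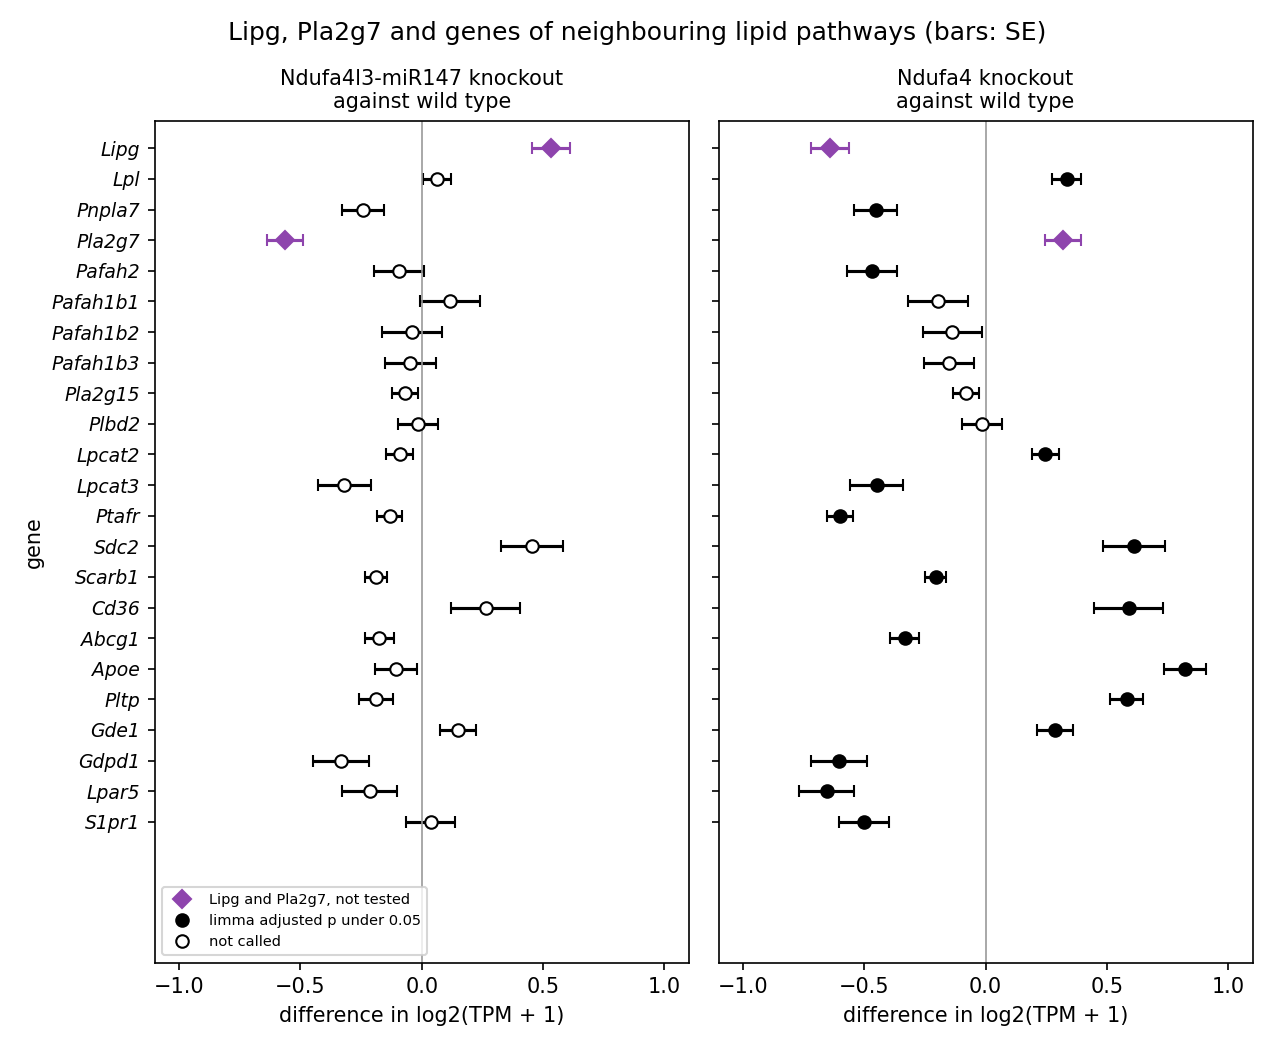
Difference in log2(TPM + 1) from wild type for Lipg, Pla2g7 and the named genes of neighbouring lipid pathways, with the Ndufa4l3-miR147 knockout on the left and the Ndufa4 knockout on the right; bars are SE, filled circles passed limma at an adjusted p under 0.05, open circles did not, and diamonds mark Lipg and Pla2g7, which were not tested. Both panels use the same wild-type libraries. Lipg lies at 0.53 and -0.64 and Pla2g7 at -0.56 and 0.32, while the open circles of the left panel lie between -0.33 and 0.46.

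Neighbours on the chromosomes were read for shifts shared with either gene. They were looked up by current symbol only, so neighbours listed under an older name were not read. Within 250000 bases of Lipg, 6 genes were found in this way and 4 passed the filter: Acaa2 (a mitochondrial thiolase), Rpl17 (a ribosomal protein), BC031181 and Dym. None of these 4 was called by limma against wild type, against 0.431% of all genes tested in the Ndufa4l3-miR147 knockout and 8.59% in the Ndufa4 knockout. With so few genes nothing is read from that count. Their differences were -0.12 to 0.08 in the Ndufa4l3-miR147 knockout (limma adjusted p of 0.66 or more). In the Ndufa4 knockout they were -0.17 to 0.15 (limma adjusted p of 0.17 to 0.40). Within the same distance of Pla2g7, 6 genes were found by current symbol and 0 passed the filter. The means of these 6 stayed at or under 0.901 TPM in each genotype. Adgrf1 and Adgrf5, which code for proteins there, were not found by current symbol, and older names were not searched. Nothing is therefore said of shifts near Pla2g7.

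Patterns most like those of both genes were looked for among the 8801 other genes with a mean of at least 5 TPM, by Pearson's r of log2(TPM + 1) over the 9 libraries. These r describe 3 groups of libraries rather than 9 independent samples and were given no test. For Lipg the highest were Mmp13, collagenase 3 (r = 0.990), Steap3, an iron reductase (0.988), Lgals9, galectin 9 (0.985), Hmgn3, a nucleosome-binding protein (0.984), and S1pr2, a receptor for sphingosine 1-phosphate (0.982). Their sizes differed widely. Steap3 was at 94.5 ± 2.82 TPM in the Ndufa4l3-miR147 knockout, 38.2 ± 1.14 TPM in the Ndufa4 knockout and 60.1 ± 0.769 TPM in wild type, and S1pr2 at 44.3 ± 0.310, 40.8 ± 0.630 and 42.5 ± 0.225 TPM in the same genotypes (SD, n = 3 each). Mmp13 came closest to Lipg in level, at 31.5 ± 1.64, 16.7 ± 1.81 and 22.5 ± 1.56 TPM.

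For Pla2g7 the highest were 5430435G22Rik (r = 0.993), Gpnmb, a lysosomal glycoprotein of macrophages (0.964), Scarf1, a scavenger receptor (0.962), Paqr4 (0.956) and Lyz2, the macrophage lysozyme (0.953). The first was at 115 ± 10.2 TPM in the Ndufa4l3-miR147 knockout, 275 ± 12.7 TPM in the Ndufa4 knockout and 208 ± 6.53 TPM in wild type. Gpnmb was at 1397 ± 37.9, 1900 ± 83.4 and 1699 ± 5.35 TPM in the same genotypes, a flatter pattern than that of Pla2g7, and Lyz2 at 4094 ± 68.7, 5414 ± 234 and 4585 ± 75.2 TPM. Lipg and Pla2g7 themselves had an r of -0.943, the 11th most negative of the 8801 genes set against Lipg. Both were chosen for opposite changes in these same libraries, so nothing is read from that value or rank. Of the genes like Lipg, Mmp13, Hmgn3 and S1pr2 lie on chromosome 9, Steap3 on chromosome 1 and Lgals9 on chromosome 11, so none shares the chromosome of Lipg. Of those like Pla2g7, Paqr4 lies on chromosome 17 as well, from 23736186 to 23740867 on GRCm38. The position of 5430435G22Rik was not found under that symbol, other names were not searched, and nothing is said of where it lies.

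**Figure D3:**
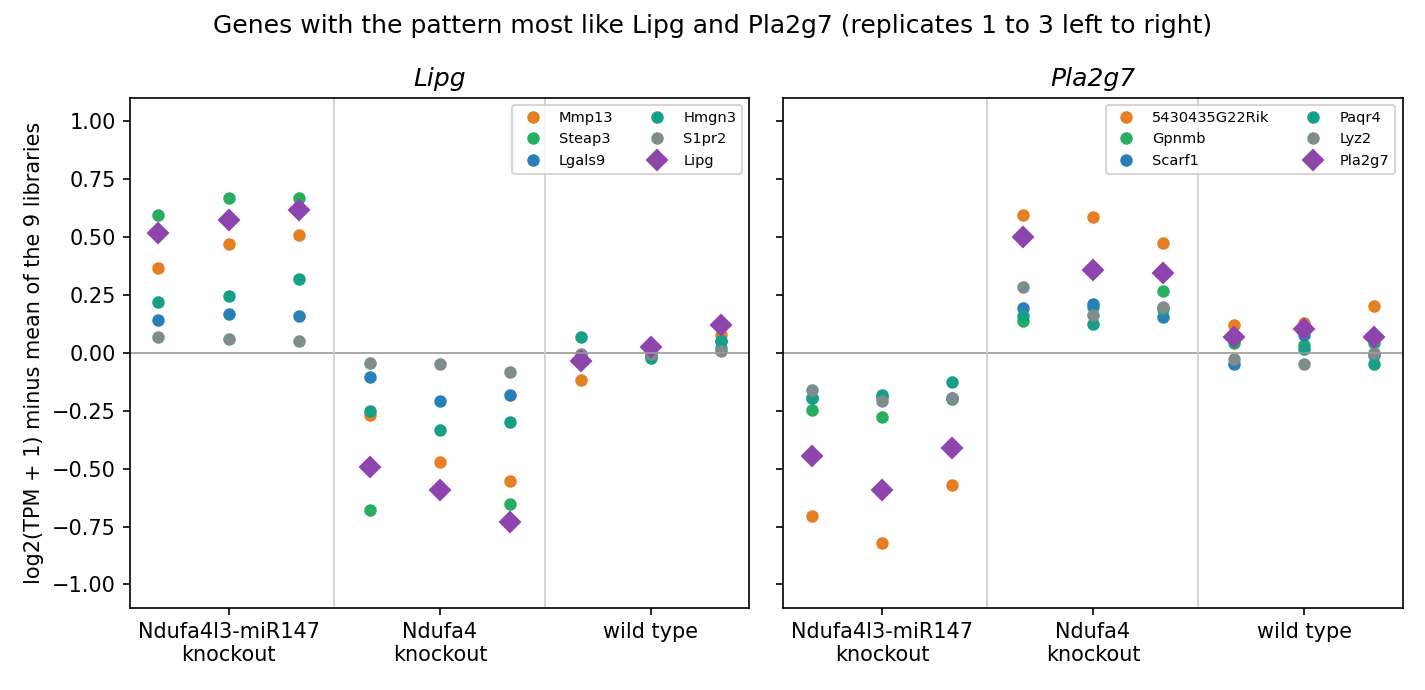
log2(TPM + 1) of each gene minus its mean over the 9 libraries, for Lipg and the 5 genes most like it (left) and for Pla2g7 and the 5 most like it (right); each point is a library, with replicates 1 to 3 from left to right within a genotype. Lipg and its 5 genes are highest in the Ndufa4l3-miR147 knockout and lowest in the Ndufa4 knockout, Pla2g7 and its 5 genes the reverse, and S1pr2 spans the least.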

How the data were processed

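TPM per gene, as deposited by the authors in 1 table, were used for 9 libraries of polyadenylated RNA. The submitters' processing notes name the tools kallisto, DESeq2 and edgeR and the builds mm10 and GRCm39, per the labels without version or role; annotation and gene summing are likewise not given. Depth is unknown, so no counting interval is given. The 1 unnamed row (0.003% of a library or less) did not enter. The 11133 genes that reached 1 TPM in 3 or more libraries were transformed to log2(TPM + 1) and fitted with limma 3.58.1 (R 4.3.3, trend, two-sided, 1 mean per genotype, all 9 libraries); calls had a Benjamini-Hochberg adjusted p under 0.05. Lipg and Pla2g7, the lipid and marker lists and the alternatives were chosen with earlier results of these data known. Lists describe counts and medians, with no set test. Of their symbols, 8 were matched by an older name. Named were Lipg and Pla2g7, their nearest relatives, up to 3 called members per list, direction and comparison with wild type (or the 2 most abundant), and the 5 genes most like each; Ctse, AA467197, Msr1, marker genes and chromosomal neighbours were named after their values were seen. The fit was also run on simulated data, whose outcome is not given here, and nothing is read from it. Of the genes this rule names, 1 is not reported here. Gene positions are GENCODE M21 on GRCm38. Alternatives were other pseudocounts, filters, scalings, variance models, fits to 6 libraries, a replicate block, a length correction and leaving out each library. Counts of called genes per list and over all lists stand beside the share of all genes called under the same setting.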

Additional observations from a re-analysis of the deposited data

How the results depend on the processing

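The differences of Lipg and Pla2g7 kept their direction in all 3 comparisons under all 20 alternatives. They moved by more than the SD between libraries in these cases: with quantile normalization, Lipg differed from wild type by -0.53 in the Ndufa4 knockout and Pla2g7 by 0.42 (0.39 with median-of-ratios scaling). Between the knockouts, Ndufa4l3-miR147 minus Ndufa4, quantile normalization gave 1.07 for Lipg and -0.98 for Pla2g7, and the length correction, chosen after seeing the data, gave 1.08 for Lipg. When each library was left out in turn, Lipg lay between 0.50 and 0.57, between -0.70 and -0.58, and between 1.11 and 1.23 for the Ndufa4l3-miR147 knockout minus wild type, the Ndufa4 knockout minus wild type, and the difference of the knockouts. Pla2g7 lay between -0.60 and -0.51, between 0.27 and 0.35, and between -0.92 and -0.83.

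Counts of calls moved more. All genes called in the Ndufa4l3-miR147 knockout against wild type numbered 48, but 306 with only the 6 libraries compared, 30 without the intensity trend, 24 with the replicate block, 74 with the length correction and 13 to 198 without 1 library. In the Ndufa4 knockout against wild type there were 956, 238 with only 6 libraries and 266 to 1586 without 1 library; the split was 315 higher and 641 lower, but 492 and 453 with median-of-ratios scaling. Between the knockouts there were 361, 64 with only 6 libraries, 162 with the replicate block and 82 to 740 without 1 library; the split was 245 higher and 116 lower, but 149 and 153 with that scaling. Lipid genes called numbered 0 in the first comparison (9 with only 6 libraries, 0 to 5 without 1 library). The shares of all genes tested were 0.431%, 2.75% and 0.117% to 1.78% under the same settings. In the second comparison 17 were called (4 with only 6 libraries, 11 with the replicate block, 4 to 21 without 1 library). There the shares were 8.59%, 2.14%, 5.94% and 2.39% to 14.2%. Between the knockouts 8 were called (3, 5, and 3 to 12). The shares there were 3.24%, 0.575%, 1.46% and 0.737% to 6.65%. The cause was not tested.

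Replicate numbers did not pair the libraries: same-numbered libraries had correlations of deviations between -0.138 and 0.179. Some differences that were not called changed sign. For the Ndufa4l3-miR147 knockout, leaving out 1 library at a time put Pafah1b3 between -0.13 and 0.052 and Plbd2 between -0.057 and 0.033. For the Ndufa4 knockout it put Pafah1b2 between -0.24 and 0.019 and Plbd2 between -0.063 and 0.069. There Plbd2 was at 0.055 with median-of-ratios scaling, 0.026 with quantile normalization and 0.11 with the length correction, Pafah1b2 at 0.058 with the length correction, and S1pr2 at 0.010, 0.00355 and 0.13 under the same 3 settings as Plbd2. Calls of lipid genes in the Ndufa4 knockout lost with no filter on low values were Pafah2, Lpcat3, Cd36 and Gde1. Those lost with the replicate block were Pafah2, Lpcat2, Lpcat3, Sdc2, Scarb1 and Gde1. Without the intensity trend the calls of Lpcat3, Scarb1, Cd36 and Gde1 were lost. With only the 6 libraries compared, lost were Lpl, Pnpla7, Pafah2, Lpcat2, Lpcat3, Sdc2, Scarb1, Cd36, Abcg1, Gde1, Gdpd1, Lpar5 and S1pr1. TPM keep no depth, so counting error is unknown.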
